A study of Saccharomyces cerevisiae with 12 samples.

Results

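The 10 genes described here code for enzymes of purine synthesis in the yeast Saccharomyces cerevisiae: ADE1, ADE2, ADE4, ADE6, ADE8, ADE12, ADE13, ADE16, ADE17 and MTD1. They were taken as genes named alone for a probe set in the platform's annotation, with the plain probe set of the highest mean signal, and they are 10 of 5445 genes that have such a probe set. Each of the 10 has a single probe set of its own, so no choice between probe sets was needed. The sources used here give no sequences for these genes, and none are shown. ADE5,7, which codes for a bifunctional enzyme of the same route, is not analysed here.

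The strains were SH121 (MU), whose TOR2 allele is temperature-sensitive and defective in the function that TOR1 cannot supply, and its isogenic wild type SH100 (WT). The Tor2 kinase regulates cell growth and the organisation of the actin cytoskeleton. Each strain was grown in the rich medium YPD at 25 °C (0 h) or shifted to 37 °C for 2 h or 6 h, which gives 6 groups (MU 0 h, MU 2 h, MU 6 h, WT 0 h, WT 2 h and WT 6 h) of 2 independent cultures, A and B, each on an Affymetrix S98 array. All cultures were harvested at a similar density, and both strains were shifted. No group was kept at 25 °C for 2 h or 6 h. The effect of temperature and that of time in culture therefore cannot be told apart within a strain. The markers carried by the strains are not given in the sources used here. ADE2 is often used as a marker in laboratory yeast, and whether either strain has an altered copy was not tested.

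The deposited values are linear signals without a unit, put on a common scale by the authors, with a median between 72.0 and 75.8 on the 12 arrays. An array had 4.33% to 6.38% of its probe sets at the floor of 1. Log2 signals of the 2 cultures of a group correlated with a Pearson r between 0.971 and 0.978 over probe sets, and probe sets are no independent replicates. TOR2 averaged 184 ± 8.63, 289 ± 60.5 and 287 ± 28.0 (SD, n = 2) at 0, 2 and 6 h in MU, and 248 ± 17.3, 284 ± 34.2 and 310 ± 58.1 in WT. Because a temperature-sensitive allele still makes RNA, the strain labels cannot be checked on TOR2. Signals are relative to the RNA on an array, so fewer transcripts per cell and fewer cells with the transcript cannot be told apart. The brightness of a probe set depends on its probes, and signals of different genes are not set against each other.

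The purine ring is built on a ribose phosphate in a route of many steps that ends in IMP, from which AMP and GMP are made. Ade4 starts it, Ade8, Ade6, Ade2, Ade1 and Ade13 act in its middle, and Ade16 and Ade17 are isoenzymes that carry out its last steps. Ade12 and again Ade13 turn IMP into AMP. One-carbon units enter the route on tetrahydrofolate, and Mtd1 is a dehydrogenase of this one-carbon metabolism in the cytosol. In yeast the activators Bas1 and Pho2 switch on many of these genes when purines are short, and adenine in the medium represses them.

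After 6 h at 37 °C, ADE2 and MTD1 were higher than at 0 h in both strains, and ADE1, ADE16 and ADE17 were higher in WT by the test. In MU, 2 of the 10 genes rose (ADE2 and MTD1) and 0 fell at an adjusted p under 0.05 (limma, Benjamini-Hochberg over 9298 probe sets), where 10.8% of all probe sets rose and 11.2% fell. In WT, 5 of the 10 rose (ADE1, ADE2, ADE16, ADE17 and MTD1) and 0 fell, where 9.84% of all probe sets rose and 9.49% fell. The p-values set a difference of group means against the spread between independent cultures, pooled over the 6 groups. The median log2 change of the 10 genes was 0.22 in MU and 0.47 in WT, beside -0.06 in MU and -0.04 in WT over all probe sets. The MU median was 0.07 without MU 6 h A, and the WT median was between 0.33 (without WT 6 h B) and 0.70 (without WT 6 h A). The changes in WT ran from -0.74 for ADE4 to 1.62 for ADE17. A lack of overlap between the 2 arrays of a later time and the 2 of 0 h was common among the 9298 probe sets. At 6 h, 2479 lay above and 3137 below 0 h in this way in MU, and 2747 above and 2738 below in WT. At 2 h, 2398 lay above and 2722 below in MU, and 2777 above and 2263 below in WT. Leaving out WT 0 h A or WT 0 h B reduced the 5 genes called in WT to 3. Of ADE2 and MTD1 in MU, neither passed without MU 0 h B or without MU 6 h A, and MTD1 alone passed without MU 0 h A, MU 2 h A, MU 2 h B or MU 6 h B.

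**Figure D1:**
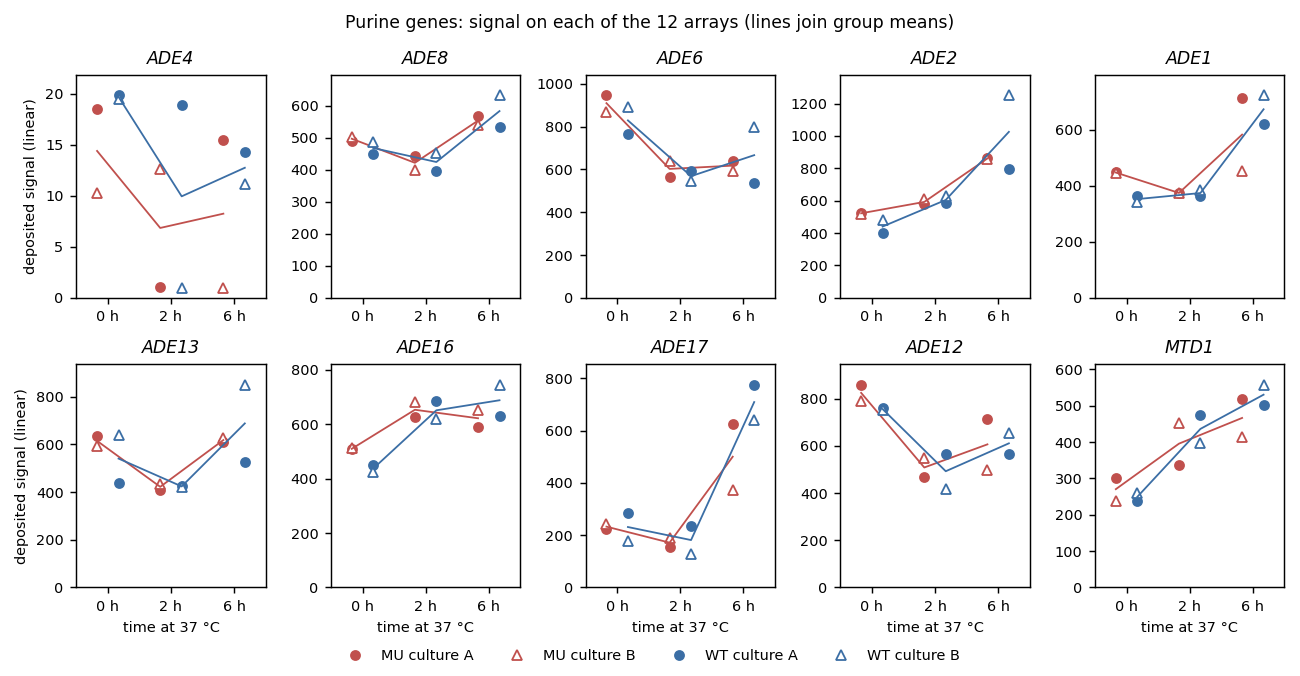
Linear deposited signal of each gene (vertical axis, from 0, with a scale of its own in each panel) at 0, 2 and 6 h, with MU left of WT at each time, filled circles for culture A, open triangles for culture B and lines through the means of 2 cultures. ADE17 was highest at 6 h in both strains, ADE6 and ADE12 were highest at 0 h, and ADE4 lay at or below 19.9 on every array.

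ADE17 had the largest rise of the 10 genes in WT. Its signals in MU were 223.8 and 241.5 at 0 h, 155.1 and 187.9 at 2 h, and 626.0 and 374.1 at 6 h. In WT they were 283.1 and 179.3 at 0 h, 233.7 and 129.0 at 2 h, and 776.1 and 641.8 at 6 h. All 4 arrays of 6 h were above all 8 arrays of the earlier times, and the WT 6 h arrays were both above the MU 6 h arrays. The log2 change at 6 h against 0 h was 1.05 in MU (standard error 0.35, adjusted p = 0.0653 from limma) and 1.62 in WT (standard error 0.35, adjusted p = 0.0167), a 3.07-fold rise in WT. The WT call was lost without WT 0 h B (log2 change 1.29, adjusted p = 0.0974) and without WT 6 h A (1.48, adjusted p = 0.0847). Fitting only the 4 arrays compared also lost the WT call (limma, adjusted p = 0.0677). In MU the change passed the threshold when the dimmest 25% of probe sets were left out (adjusted p = 0.0223).

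ADE16, which codes for the other isoenzyme, took a different course and was already higher at 2 h. It had signals of 508.3 and 510.8, then 625.6 and 680.4, then 589.8 and 653.7 at 0, 2 and 6 h in MU. In WT the signals were 450.8 and 423.1, then 683.7 and 618.3, then 630.0 and 745.8. Both later times were above 0 h in both strains without overlap, whereas 2 h and 6 h overlapped. In WT it rose at 2 h (log2 change 0.54, standard error 0.10, adjusted p = 0.0179 from limma) and at 6 h (0.62, standard error 0.10, adjusted p = 0.00553). In MU the values were 0.35 at 2 h (adjusted p = 0.0775) and 0.28 at 6 h (adjusted p = 0.0801), so neither passed. The WT call at 2 h was lost without WT 0 h A (adjusted p = 0.0684), WT 0 h B (0.0985) or WT 2 h A (0.0754).

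Within each array, the signal of ADE17 relative to that of ADE16 fell and then rose over the time course. The log2 of ADE17 minus that of ADE16 averaged -1.13 ± 0.07, -1.93 ± 0.11 and -0.36 ± 0.63 (SD, n = 2) at 0, 2 and 6 h in MU, and -0.95 ± 0.39, -1.91 ± 0.50 and 0.04 ± 0.36 in WT. The 4 arrays of 6 h lay between -0.81 and 0.30, and the 4 arrays of 2 h between -2.26 and -1.55, so these times did not overlap. The level of this difference depends on the probes, and only its course over time can be read. It was formed after the signals had been seen and was not tested.

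**Figure D2:**
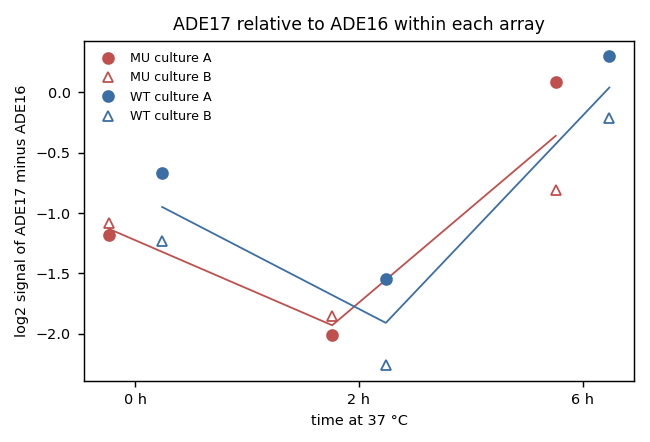
Normalized log2 signal of ADE17 minus that of ADE16 on the same array (vertical axis) at 0, 2 and 6 h, with MU left of WT, filled circles for culture A, open triangles for culture B and lines through the means of 2 cultures. The lowest values in both strains are at 2 h, with means of -1.93 in MU and -1.91 in WT, and the highest at 6 h.

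ADE2 and ADE1 code for enzymes of neighbouring steps, AIR carboxylase and SAICAR synthetase, and both rose in WT at 6 h. ADE2 had signals of 523.5 and 521.0, 577.4 and 607.6, and 865.5 and 856.8 at 0, 2 and 6 h in MU, and of 400.5 and 480.2, 583.4 and 626.1, and 796.7 and 1254.2 in WT. The arrays of successive times did not overlap in either strain, but no single step passed the test (adjusted p 0.187 to 0.643), and the change over 6 h did. The log2 change at 6 h was 0.72 in MU (standard error 0.19, adjusted p = 0.0317 from limma) and 1.16 in WT (standard error 0.19, adjusted p = 0.00603). The MU call was narrow: without MU 0 h A, MU 0 h B, MU 2 h A, MU 2 h B, MU 6 h A or MU 6 h B the adjusted p lay between 0.0507 and 0.119. The WT call was lost only when the 4 arrays compared were fitted alone (adjusted p = 0.111).

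ADE1 had signals of 448.8 and 444.4, 373.9 and 374.0, and 713.0 and 450.9 at 0, 2 and 6 h in MU, and of 362.3 and 341.7, 361.3 and 385.9, and 620.6 and 723.7 in WT. In MU only culture A of 6 h was far above 0 h, and culture B was about level with the 0 h arrays. The log2 change at 6 h was 0.34 in MU (standard error 0.19, adjusted p = 0.228 from limma) and 0.90 in WT (standard error 0.19, adjusted p = 0.0143). The MU value was 0.67 (adjusted p = 0.0109) without MU 6 h B. The WT call was lost without WT 0 h A (adjusted p = 0.0612), WT 0 h B (0.0766) or WT 6 h B (0.0697).

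MTD1, the dehydrogenase of one-carbon metabolism, rose in both strains. Its signals were 302.3 and 238.7, 338.0 and 453.4, and 519.2 and 413.6 at 0, 2 and 6 h in MU, and 238.7 and 260.0, 474.5 and 398.1, and 502.4 and 558.4 in WT. Every array after the shift was above every 0 h array of both strains. The log2 change at 6 h was 0.78 in MU (standard error 0.19, adjusted p = 0.0215 from limma) and 1.07 in WT (standard error 0.19, adjusted p = 0.00793). At 2 h it was 0.54 in MU (adjusted p = 0.127) and 0.77 in WT (adjusted p = 0.0449), and this WT call was lost under several alternatives, among them leaving out WT 0 h A, WT 0 h B, WT 2 h A or WT 2 h B (adjusted p 0.0959 to 0.183). At 6 h the MU call was lost without MU 0 h B (adjusted p = 0.121) or MU 6 h A (0.0953), and the WT call without WT 0 h A (0.0519).

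ADE6 and ADE12 lay lower after the shift in both strains and were close to the threshold. ADE6, which codes for the FGAM synthetase, had signals of 949.0 and 871.0, 565.7 and 639.7, and 641.5 and 594.6 at 0, 2 and 6 h in MU. In WT the signals were 767.5 and 891.4, 590.6 and 547.0, and 536.0 and 797.9. Both 2 h groups were below their 0 h group without overlap, with a log2 change of -0.60 in MU (adjusted p = 0.0816 from limma) and -0.58 in WT (adjusted p = 0.0858). At 6 h it was -0.56 in MU (adjusted p = 0.0551) and -0.37 in WT (adjusted p = 0.186), where WT 6 h B overlapped the 0 h arrays, and without that array the WT value was -0.65 (adjusted p = 0.0225). With the dimmest 25% of probe sets left out, ADE6 passed at 2 h in MU (adjusted p = 0.0384) and in WT (0.0444), and at 6 h in MU (0.0261).

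ADE12 codes for adenylosuccinate synthetase, the first enzyme of the branch to AMP. Its signals were 859.3 and 788.5, 467.1 and 548.9, and 714.5 and 497.3 at 0, 2 and 6 h in MU, and 761.1 and 749.4, 566.2 and 418.1, and 567.2 and 653.3 in WT. All 8 arrays after the shift were below all 4 arrays of 0 h. The log2 change at 2 h was -0.70 in MU (adjusted p = 0.0738 from limma) and -0.67 in WT (adjusted p = 0.0767), and at 6 h it was -0.46 in MU (adjusted p = 0.133) and -0.34 in WT (adjusted p = 0.270). At 2 h both passed with the dimmest probe sets left out (adjusted p = 0.0298 in MU and 0.0356 in WT), and at 6 h the MU value passed without MU 6 h A (-0.73, adjusted p = 0.0413).

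ADE8 and ADE13 were lowest at 2 h and did not pass the test at any time. ADE8 codes for GAR transformylase, and its group means were 497, 422 and 554 at 0, 2 and 6 h in MU and 468, 424 and 584 in WT. Its SD of 2 cultures was between 8.13 and 71.8, and both 6 h groups were above their 0 h and 2 h groups without overlap. Of 9298 probe sets, 2479 in MU and 2747 in WT also lay above 0 h without overlap at 6 h. ADE13 codes for adenylosuccinate lyase, which acts both in the route to IMP and in the branch to AMP. Its means were 614 ± 28.0, 422 ± 16.7 and 618 ± 12.7 (SD, n = 2) in MU and 540 ± 142, 424 ± 3.82 and 688 ± 231 in WT. The WT duplicates of ADE13 lay far apart at 0 h (440.0 and 640.8) and at 6 h (524.7 and 850.9), so a rise in WT of the size measured (log2 change 0.31, interval -0.23 to 0.85) was within the spread of the cultures.

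ADE4 codes for the amidotransferase that starts the route, and its probe set was dim on every array. Its signals were 18.5 and 10.3, 1.1 and 12.6, and 15.5 and 1.0 at 0, 2 and 6 h in MU, and 19.9 and 19.5, 18.9 and 1.0, and 14.3 and 11.2 in WT. On 2 arrays it stood at the lowest deposited value. Its rank on a scale of 0 to 100 was at most 22.2, and the standard error of its log2 changes was 1.72, so no change of ADE4 could be measured at this signal. Whether the gene or its probes account for the low signal was not tested.

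**Figure D3:**
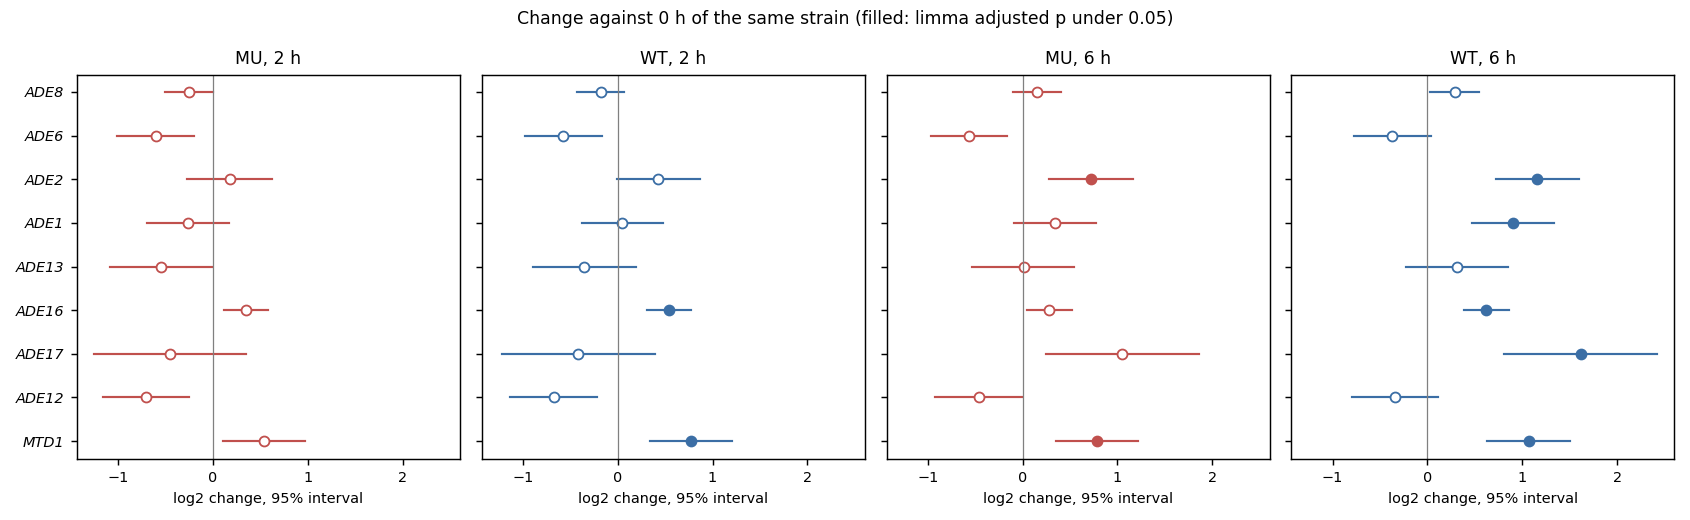
Log2 change against 0 h of the same strain (horizontal axis, 95% interval from limma) for 9 genes, with ADE4 left out because its interval spans several units. Filled points passed an adjusted p under 0.05: none in MU at 2 h, ADE16 and MTD1 in WT at 2 h, ADE2 and MTD1 in MU at 6 h, and ADE1, ADE2, ADE16, ADE17 and MTD1 in WT at 6 h.

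At 2 h in MU 0 of the 10 genes passed (5 at an unadjusted p under 0.05), where 7.98% of all probe sets did. At 2 h in WT 2 rose (ADE16 and MTD1) and 0 fell, where 5.38% of all probe sets rose and 3.27% fell. The median log2 change of the 10 was -0.36 in MU and -0.26 in WT. Without ADE4 the medians were -0.26 in MU and -0.18 in WT, a choice made after its signals had been seen. The WT median of the 10 was -0.17 without WT 0 h A and -0.10 without WT 0 h B or WT 2 h B. Without ADE4 it was -0.09 without WT 0 h A, -0.08 without WT 0 h B or WT 2 h A, and 0.00 without WT 2 h B.

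Between 2 h and 6 h all 10 genes had a positive log2 change in WT and 9 in MU, but 0 passed in either strain (limma, 5 in each at an unadjusted p under 0.05). The background was low, with 0.624% of all probe sets called in MU and 0.0645% in WT. The count of positive changes includes ADE4, which could not be measured, and depended on single arrays. Without WT 6 h B, 2 of the 10 were negative in WT (median 0.32, beside 0.56 on all arrays), and without WT 6 h A 0 were (0.78). Without MU 6 h A, 3 were negative in MU (median 0.18, beside 0.32 on all arrays), and without MU 6 h B 1 was (0.52). ADE17 had the largest log2 changes, with 1.50 in MU (adjusted p = 0.0907) and 2.03 in WT (adjusted p = 0.106), a 2.84-fold and a 4.09-fold difference. With the dimmest 25% of probe sets left out, ADE17 passed in MU (adjusted p = 0.0312) and in WT (0.026). ADE2 passed in WT without WT 6 h A (adjusted p = 0.036), and ADE1 passed in MU without MU 6 h B (0.0331).

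None of the 10 genes differed between the strains at any time by the test. The background was 0.0323% of all probe sets called at 0 h, 0% at 2 h and 0% at 6 h (limma, adjusted p under 0.05). An unadjusted p under 0.05 was met by 430, 508 and 812 probe sets, none of the 10 genes among them. At 0 h, 9 of the 10 had a positive difference of MU minus WT, led by ADE1 with 0.32 (interval -0.10 to 0.75). In 5 of the 10 both MU arrays were above both WT arrays at 0 h, where 19.2% of all probe sets were, and in 1 both were below, where 15.4% were. At 2 h the strains were nearly level: without ADE4 the differences ran from -0.14 to 0.09.

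At 6 h all 10 genes had a negative difference of MU minus WT, with a median of -0.16 beside -0.01 over all probe sets. The value depended on culture B of WT 6 h. Among the 9 genes other than ADE4, WT 6 h B was above WT 6 h A in 8, by a median of 0.24 on the log2 scale. Without WT 6 h B, the median of the 10 genes was 0.03 and 5 differences were negative, and without WT 6 h A it was -0.36 with 10 negative. Only ADE17 had both MU 6 h arrays below both WT 6 h arrays (626.0 and 374.1 in MU, 776.1 and 641.8 in WT), where 19.4% of all probe sets did, and its difference of -0.54 had an interval of -1.34 to 0.26.

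**Figure D4:**
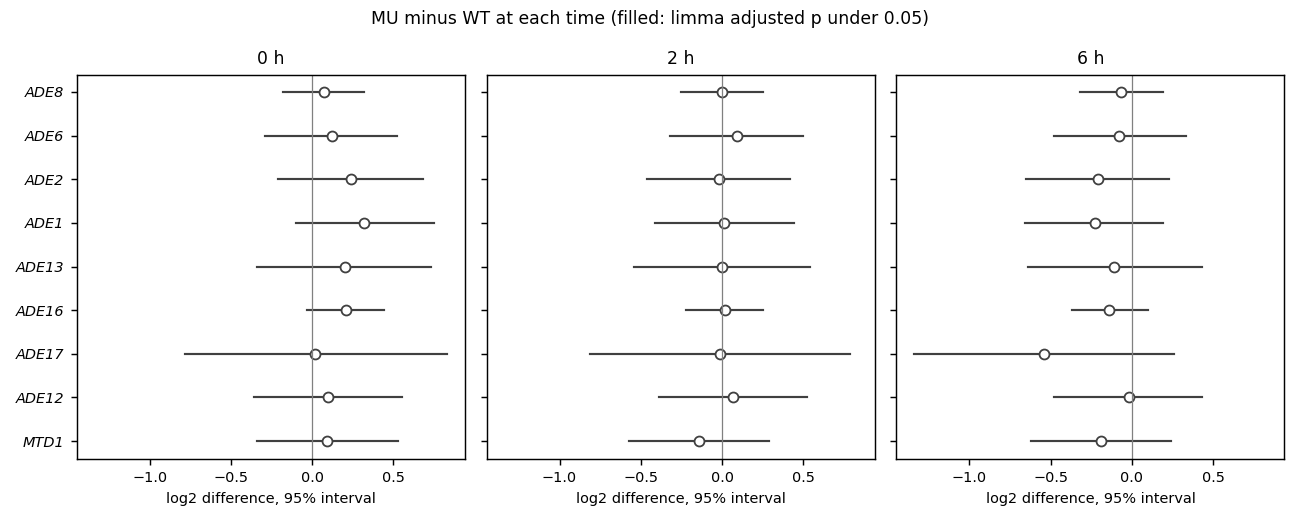
Difference of MU minus WT in normalized log2 signal (horizontal axis, 95% interval from limma) at 0, 2 and 6 h for 9 genes, with ADE4 left out. Open points did not pass an adjusted p under 0.05, and all points are open; at 6 h all 9 lie below 0, and the median of all 10 genes is -0.16.

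Taken with its sign, the change from 0 h to 6 h was lower in MU than in WT for all 10 genes. The median difference was -0.32 on the log2 scale, but for 0 genes did the test of this difference pass (limma, adjusted p 0.950 to 0.980). For ADE6 (-0.56 in MU and -0.37 in WT), ADE12 (-0.46 and -0.34) and ADE4 (-1.83 and -0.74) it was a larger fall in MU. Without WT 6 h B the median difference was -0.16 and without MU 6 h B it was -0.17, in each case with 8 of 10 negative. The test came closest for ADE16, with a difference of -0.34 (interval -0.67 to -0.01, adjusted p = 0.950), the only member at an unadjusted p under 0.05. For ADE1 the difference was -0.56 (interval -1.17 to 0.05) and for ADE2 -0.44 (interval -1.07 to 0.18). From 0 h to 2 h, 0 genes passed, and the differences ran from -0.31 for ADE1 to 0.38 for ADE4. In both tests 0% of all probe sets passed, with 389 (0 to 2 h) and 466 (0 to 6 h) at an unadjusted p under 0.05.

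Other genes of purine metabolism were taken from lists. ADE3, the cytosolic tetrahydrofolate synthase that supplies one-carbon units, had a log2 change at 6 h of -0.10 in MU (adjusted p = 0.531 from limma) and 0.16 in WT (adjusted p = 0.322). Its difference of MU minus WT at 6 h was -0.27 (limma, unadjusted p = 0.0348, adjusted p = 0.537). Of the 6 genes of the rest of the route and of PRPP supply, 0 rose and 1 fell in MU and 0 rose and 2 fell in WT at 6 h. Over all probe sets, 10.8% rose and 11.2% fell in MU, and 9.84% rose and 9.49% fell in WT. In lists as short as these, small counts can lie near such shares, and no list was tested as a set. PRS5, a subunit gene of PRPP synthetase, fell in both strains (log2 change -0.44 in MU and -0.50 in WT), and PRS3 fell in WT (-0.37, adjusted p = 0.0326).

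Genes of the branch to GMP were among those that fell at 6 h. Of 7 genes of the branches and nucleotide kinases, 0 rose and 3 fell in MU and 0 rose and 2 fell in WT. Of all probe sets, 10.8% rose and 11.2% fell in MU, and 9.84% rose and 9.49% fell in WT. Whether called or not, 3 of the 7 genes had a positive log2 change and 4 a negative one in each strain. GUA1, the gene of GMP synthase, had signals of 1482.7 and 1474.6 at 6 h against 2052.2 and 2105.6 at 0 h in MU, and of 1531.2 and 1682.8 at 6 h against 2062.1 and 1933.8 at 0 h in WT. Its log2 change was -0.49 in MU (adjusted p = 0.00766 from limma) and -0.33 in WT (adjusted p = 0.0361). IMD2, a gene of IMP dehydrogenase, fell by 0.56 in MU (adjusted p = 0.0115) and by 0.51 in WT (adjusted p = 0.0176), but its probe set is of a kind that can read other IMD genes. IMD4 fell in MU (-0.42, adjusted p = 0.00625).

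Among the listed genes, other than the dim PHO2, the largest rises at 6 h were in the glycine cleavage system, which releases one-carbon units from glycine in mitochondria. Of 12 genes of one-carbon and glycine supply, 4 rose and 3 fell in each strain at 6 h. The shares of all probe sets that rose and fell were 10.8% and 11.2% in MU, and 9.84% and 9.49% in WT. GCV1 averaged 61.8, 234 and 376 at 0, 2 and 6 h in MU and 64.6, 219 and 451 in WT, with a log2 change at 6 h of 2.60 in MU (adjusted p = 0.00311 from limma) and 2.76 in WT (adjusted p = 0.00285). GCV2 and GCV3 rose at both times in both strains, GCV3 by 1.70 in MU and 1.98 in WT at 6 h. SHM2, the cytosolic serine hydroxymethyltransferase, rose by 0.81 in MU (adjusted p = 0.0306) and 1.13 in WT (adjusted p = 0.0102). DFR1, the gene of dihydrofolate reductase, fell at 6 h in both strains (-1.16 in MU and -0.93 in WT), and FOL1 and FOL2 of folate synthesis fell too.

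For GCV1, GCV2 and GCV3 the MU 6 h cultures were far apart, with culture A above culture B as for ADE1, ADE12, ADE17 and MTD1. GCV1 had 502.7 in culture A and 249.4 in culture B, GCV2 had 491.0 and 252.0, and GCV3 had 2554.7 and 1721.9. Among the 9 purine genes other than ADE4, MU 6 h A was above MU 6 h B in 7. Without MU 6 h B the median difference of MU minus WT at 6 h was -0.03, with 7 of 10 negative.

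Uptake and salvage genes were mixed. Of 12 genes, 0 rose and 4 fell in MU and 2 rose and 2 fell in WT at 6 h. The shares of all probe sets that rose and fell were 10.8% and 11.2% in MU, and 9.84% and 9.49% in WT. FCY21 and FCY22, which code for relatives of the purine and cytosine permease, fell in both strains. FCY21 had 98.1 and 108.1 at 6 h against 309.4 and 293.7 at 0 h in MU (log2 change -1.55, adjusted p = 0.000185 from limma), and 104.1 and 121.5 against 268.0 and 294.6 in WT (-1.35, adjusted p = 0.000421). AAH1, the gene of adenine deaminase, fell in MU (-0.81, adjusted p = 0.0183), and GUD1, of guanine deaminase, rose in WT (0.67, adjusted p = 0.032) from a low signal.

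Histidine synthesis shares the intermediate AICAR with the purine route, and its genes did not follow a single direction. Of 7 genes, 2 rose and 2 fell in MU and 2 rose and 1 fell in WT at 6 h. The shares of all probe sets that rose and fell were 10.8% and 11.2% in MU, and 9.84% and 9.49% in WT. HIS1, the first enzyme, fell to 740.4 and 818.2 in MU 6 h against 1229.8 and 1359.0 in MU 0 h (log2 change -0.74, adjusted p = 0.00133 from limma), and to 693.6 and 720.0 in WT 6 h against 1293.7 and 1258.5 in WT 0 h (-0.87, adjusted p = 0.000821). HIS7 rose in WT (0.66, adjusted p = 0.0373) with 0.36 in MU (adjusted p = 0.189), and HIS2 rose in both (0.62 in MU and 0.95 in WT). In MU HIS3 rose (0.43, adjusted p = 0.0382) and HIS6 fell (-0.87, adjusted p = 0.00701). HIS4, which Bas1 also controls, had 0.31 in MU (adjusted p = 0.505) and 0.01 in WT (adjusted p = 1). Its WT 6 h cultures lay on either side of 0 h, with 519.4 in A and 241.5 in B against 340.5 and 352.5 at 0 h, so the WT value has no settled direction.

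The activators themselves were measured with unequal precision. GCN4, the activator of amino acid synthesis genes, had a log2 change at 6 h of 0.23 in MU (adjusted p = 0.0686 from limma) and 0.24 in WT (adjusted p = 0.0624). BAS1 averaged 74.3, 80.4 and 73.0 at 0, 2 and 6 h in MU and 57.8, 114 and 81.6 in WT. In WT it rose at 2 h (0.90, adjusted p = 0.0301), with 94.3 and 133.9 at 2 h against 57.3 and 58.3 at 0 h. PHO2 was at the lowest value on both WT 0 h arrays and did not exceed 10.3 on any array, so no fold is given. It nevertheless passed the test at 2 h in WT and at 6 h in both strains.

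Pyrimidine synthesis, the other nucleotide route, was listed for comparison. Of 9 genes, 2 rose and 5 fell in MU at 6 h, where 10.8% of all probe sets rose and 11.2% fell. In WT 1 rose and 1 fell, near the shares over all probe sets (9.84% and 9.49%). URA3 fell in both (-1.08 in MU and -0.97 in WT) and URA7, a CTP synthase gene, fell in MU (-0.76, adjusted p = 0.00766), where URA4 also fell (-0.49) and URA10 rose (adjusted p = 0.0198). URA8, the gene of the other CTP synthase, rose in both (0.33 in MU and 0.41 in WT).

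**Figure D5:**
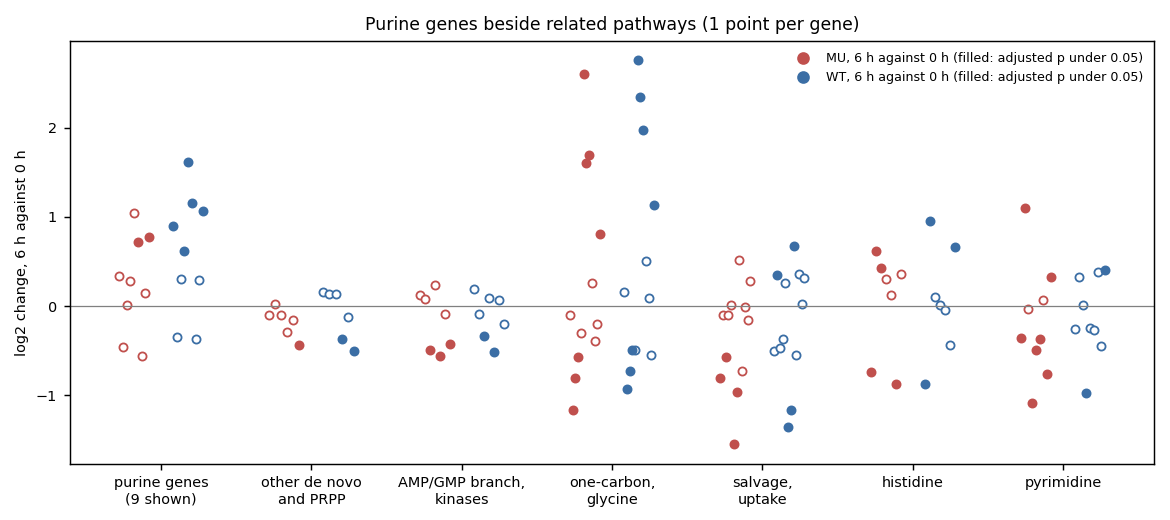
Log2 change at 6 h against 0 h (vertical axis) for each gene of the purine set and of related lists, MU left of WT within each list, with filled points at an adjusted p under 0.05 from limma. ADE4 and PHO2, with signals near the lowest value, are left out, and the highest points are GCV1 with 2.60 in MU and 2.76 in WT.

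The genes whose course was most like that of the set depended on ADE4. By Pearson r over the 6 group means with the mean centred profile of the 10 genes, among 3613 genes above the median signal, the closest were URC2 (0.975), LSB6 (0.964), VPS70 (0.963), RML2 (0.951) and TRP2 (0.951). Without ADE4 in the profile the closest were KGD2 (0.980), TPN1 (0.978), AIM11 (0.978), SRB2 (0.976) and HIR3 (0.971), and 0 genes were in both lists. Over 6 points that share arrays, such values are a description only. Among the members, with ADE4 left out, ADE1 (0.99), ADE17 (0.96) and ADE8 (0.94) followed the mean of the other 8 most closely, and ADE6 (-0.18) the least. With ADE4 in the mean, ADE8 (0.95) and ADE13 (0.93) came first and ADE16 (-0.05) last, so the order within the set also depended on this dim probe set.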

How the data were processed

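The data are 12 arrays, 2 cultures in each of 6 groups. The authors computed signals with MAS 5.0 and treated them with Matlab code of their own, and the deposited signal intensities are linear. How the arrays came to a common scale is not given in the sources. Genes were named through the platform's annotation (1 gene symbol for 6504 of 9335 probe sets, several for 328, none for 2503), and their symbols were matched to the RefSeq R64 table. All columns were used.

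From these values, 37 foreign control probe sets were left out and log2 signals of 9298 were quantile-normalized. All 12 arrays were fitted with limma 3.58.1 (R 4.3.3) in 6 groups with a variance trend (6 residual and 1.85 prior degrees of freedom), and p-values were adjusted over all probe sets (Benjamini and Hochberg). With 2 cultures in a group, the pooled spread carries the precision, and the number of arrays limits it. Intervals are 95% intervals of the fit. No exact permutation p is given, since 2 against 2 arrays cannot pass 0.05. The rank method of the study was not rebuilt, but its rank scale was an alternative. Tables and plots were made with Python 3.11.15.

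The members and lists were chosen with earlier results of these data known. The text names the 10 genes, ADE3, IMD2, SHM2, HIS1, HIS4, HIS7, BAS1, PHO2 and GCN4. It also names TOR2, LEU2, the 5 genes closest in pattern, and in each list up to 4 more with the largest changes past the threshold. FOL1, FOL2 and URA8 were added after their values were seen. The fit was tested on simulated data for MU 6 h against WT 6 h (9298 probe sets): it found 96 of 100 log2 changes of 1, all 100 of 2, and made 12 false calls. The simulated noise was normal, and its spread depended on the signal alone. Changes were placed only in probe sets above the median signal. These counts therefore do not give the share of real changes that the test would find in the arrays.

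Results were recomputed without each array, with the culture letter as a replicate block, on ranks, after median scaling, with an offset of 16, without the dimmest 25% of probe sets, without the variance trend, on the compared arrays alone, and at an adjusted p under 0.10.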

Additional observations from a re-analysis of the deposited data

How the results depend on the processing

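The counts of purine genes called against 0 h or between times depended on the settings, and those between the strains did not. With main counts of 0 in MU and 2 in WT at 2 h against 0 h, 2 in MU and 5 in WT at 6 h against 0 h, and 0 at 6 h against 2 h in each strain, leaving out the dimmest 25% of probe sets gave 2 in MU and 4 in WT at 2 h, 4 in MU at 6 h, and 1 in each strain at 6 h against 2 h. Fewer probe sets were then tested, and ADE4 had no value. All calls in the main counts were rises. The calls added at 2 h were falls of ADE6 and ADE12 in both strains. Those added at 6 h in MU were a rise of ADE17 and a fall of ADE6. Fitting only the arrays compared gave 0 in WT at 2 h, 1 in MU and 2 in WT at 6 h. An adjusted p under 0.10 gave 3 in MU and 4 in WT at 2 h, 5 in MU at 6 h and 1 in MU at 6 h against 2 h. Here too the calls added at 2 h included falls of ADE6 and ADE12 in both strains. Those added at 6 h in MU included a fall of ADE6. Without a variance trend 1 was called in WT at 2 h. Leaving out each array gave 0 to 1 in MU and 0 to 3 in WT at 2 h, 0 to 3 in MU and 3 to 5 in WT at 6 h, and 0 to 1 in each strain at 6 h against 2 h. The cause of these shifts was not tested beyond their construction. Between the strains and in the differences of their changes, 0 purine genes passed under every alternative run.

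The sources do not say whether the letters A and B pair cultures across groups. Deviations from the group means of the same letter correlated between -0.344 and 0.273 over pairs of groups, without a common sign. Whether cultures of a letter were handled together was not tested. With the letter as a replicate block, 1 purine gene was called in WT at 2 h (2 without it), 3 in MU at 6 h (2 without it), and the other counts did not change. Of 2079 recomputed changes of single genes, 33 lost and 31 gained a call, 0 called changes turned their sign, and 68 uncalled ones did. Averaging the probe sets of a gene changes nothing here, since each member has 1. Signals near the lowest value do not give the size of a change. This holds for ADE4, which passed in no comparison, and for PHO2, which passed the test in some.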
